A study of Mus musculus with 14 samples.

Results

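The tumor-free colon epithelium of the colitis-associated and the sporadic tumor model was compared array by array: 5 of the 14 arrays of the series, 2 labelled CAC control and 3 labelled sporadic control. They were taken by their labels alone, and every probe set other than the array's own controls was tested. CAC control arrays each hold RNA pooled from 5 male C57BL/6J mice, in experimental block 1. Sporadic control arrays each hold RNA pooled from 4 male C57BL/6J-ApcMin/+/J mice, in experimental block 2, which carry a truncating Apc allele in every cell, the purified epithelium included. Azoxymethane (a carcinogen) followed by cycles of dextran sodium sulfate in drinking water (an injury to the colon lining) is described in the labels for the CAC tumors, and the labels do not say whether the mice of the CAC control pools had either. Age is not given. In both control groups, distal colon was shaken warm in a buffer with calcium chelators and dithiothreitol, which lifts the epithelium off the tissue beneath it. Genotype, experimental block and any earlier treatment go together in this comparison and cannot be told apart.

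The colon epithelium renews itself from stem cells at the crypt base, where Wnt signaling is high and where Apc, part of the complex that breaks down beta-catenin, holds that signaling back. Daughter cells divide, move up the crypt and mature into absorptive colonocytes, mucus-producing goblet cells, hormone-producing enteroendocrine cells and tuft cells. Freshly isolated epithelium also carries a record of its handling, since immediate early genes and heat shock genes are transcribed within minutes of mechanical, growth factor or heat signals.

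Intensity below means the linear array signal that the authors obtained with GCRMA, which corrects for background by probe sequence. Differences are log2, CAC control minus sporadic control, ± the standard error of the limma fit to the 5 arrays. A gene passed when its p, adjusted over all 22626 probe sets, was under 0.05 and its geometric mean over the 5 arrays was at least 32; 6133 of 13085 genes reached that intensity. Of all genes 608 passed (4.65%): 141 were higher in CAC control (1.08%) and 467 were lower (3.57%), and 243 (1.86%) differed at least 2-fold, 57 higher (0.436%) and 186 lower (1.42%). By probe set 924 passed (4.08%), 263 higher (1.16%) and 661 lower (2.92%). The split was less uneven after quantile normalization, with 282 higher and 377 lower, and that step moved the median of the probe sets above the intensity minimum from -0.13 to -0.01. Without sporadic control 1, 2 or 3 the number of passing probe sets fell to 471, 246 or 397, and without CAC control 1 or 2 it was 698 or 762. The p-values measure the spread between these pools, and with 2 pools against 3 the groups did not overlap for 36.5% of all genes. Among the 6133 genes of at least 32 the groups did not overlap for 54.4%, and 2.3% passed as higher and 7.61% as lower. Lists of bright genes are to be read against these shares. Array quality was alike in overall signal, with medians of 15 to 16 and 9342 to 9587 probe sets of at least 32. Correlations of log2 intensity were 0.98 to 0.99 between pools of one group and 0.92 to 0.94 between groups.

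**Figure D1:**
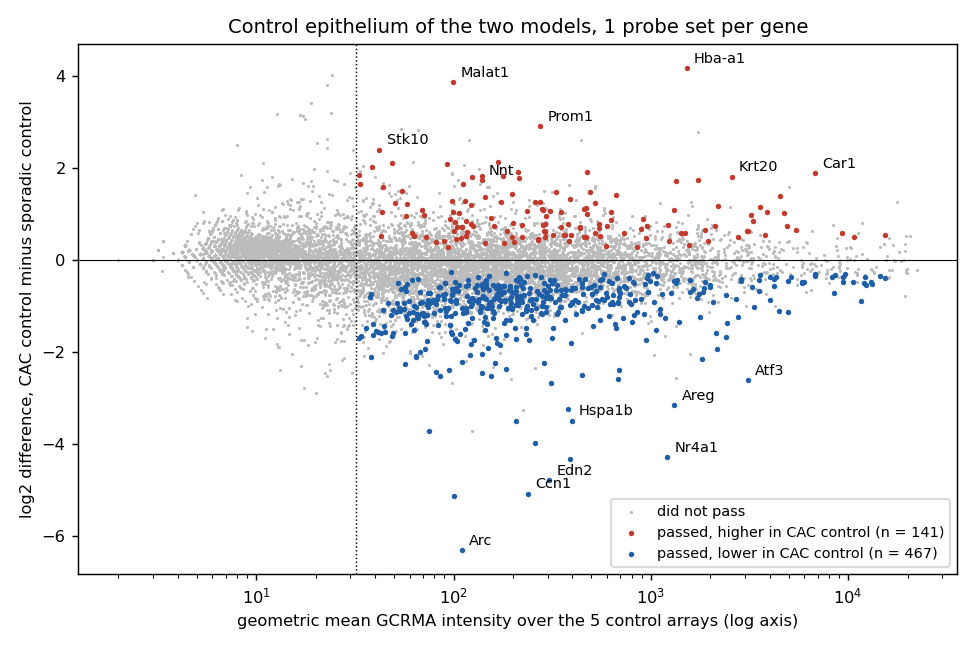
Difference between the control epithelia against intensity, 1 point per gene. The x axis is the geometric mean GCRMA intensity over the 5 control arrays on a log axis, the dotted line marks 32, and the y axis is the log2 difference, CAC control minus sporadic control. The 467 genes that passed as lower reach -6.30 (Arc), and the 141 that passed as higher reach 4.16 (Hba-a1).

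Immediate early genes, which encode fast-acting transcription factors and their brakes, were lower in CAC control and gave 3 of the 12 lowest genes. Of the 27 members of the list on the array 11 were lower and 0 were higher (15 lower and 0 higher at an unadjusted p under 0.05, counting, unless any intensity is stated, members with a mean of at least 32), and in 19 members both CAC pools lay below all 3 sporadic pools, against 19.9% of all genes. By the same unadjusted count 1610 of all 13085 genes were lower and 615 were higher. At any intensity 1783 were lower and 1534 were higher. The list's median was -1.59, and the median of all genes of at least 32 was -0.17. Ccn1, a secreted matrix protein induced by serum and stretch (Cyr61 in the deposited table), read 30 and 28 in the CAC pools and 1097, 1009 and 839 in the sporadic pools. Its difference of -5.07 ± 0.14 was 33.7-fold (adjusted p = 0.000293). Nr4a1, an orphan nuclear receptor, read 250 and 167 against 2899, 4865 and 4476 (-4.28 ± 0.34, adjusted p = 0.00892). Fosb, a partner of Jun proteins in the AP-1 complex, read 74 and 33 against 590, 923 and 875 (-3.98 ± 0.46, adjusted p = 0.0254). All 3 genes were low in both CAC pools and high in all sporadic pools, with no overlap.

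Atf3, a stress-induced repressor, was high in absolute signal in both groups, at 1228 and 891 against 5694, 6893 and 6649 (-2.61 ± 0.19, adjusted p = 0.00684). The other 7 members that passed were Egr1, Zfp36, Klf6, Ier2, Jund, Jun and Dusp1, with differences between -2.15 (Egr1) and -1.01 (Dusp1). Jun, the partner of Fos proteins in AP-1, read 3198 and 3028 against 6355, 7456 and 6566 (-1.12, adjusted p = 0.0092). Zfp36 binds and destabilizes short-lived mRNAs, and Dusp1 is a phosphatase that switches off MAP kinases. Egr2, Maff, Klf2, Fosl2, Fosl1 and Junb lay between -2.66 and -1.12 with no overlap and did not pass. Arc, an immediate early gene best known from neurons, was not on the list and had the lowest difference of all passing genes: it read 8 and 8 against 483, 716 and 722 (-6.30 ± 0.23, adjusted p = 0.00074). The CAC pools are near the floor for Arc, so the fold is not well measured.

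The number of immediate early genes that passed as lower depended on the pools. It was 11 without CAC control 1, 6 without CAC control 2, 6 without sporadic control 1, 3 without sporadic control 2 and 6 without sporadic control 3; it was 8 after quantile normalization and 6 when all 14 arrays set the spread. Ccn1 and Arc passed whichever pool was left out, with adjusted p of at most 0.00766 and 0.011. Nr4a1 and Atf3 lost the call without sporadic control 2 (adjusted p = 0.0541 and 0.0521). Fosb lost it without any one sporadic pool (adjusted p up to 0.118), and Dusp1 without CAC control 2 or sporadic control 2 (adjusted p up to 0.0927).

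**Figure D2:**
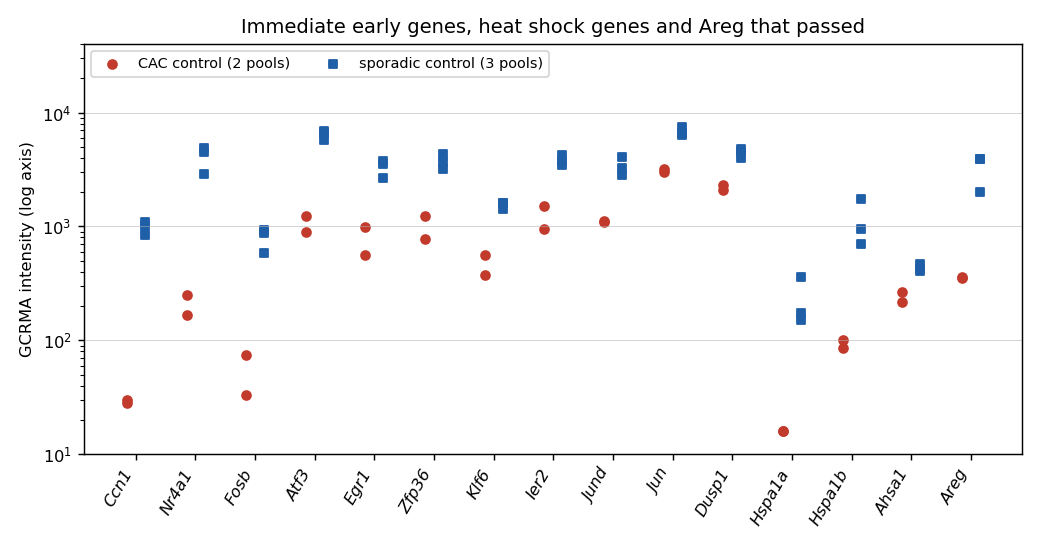
GCRMA intensity on a log axis for the immediate early genes and heat shock genes that passed and for Areg, with 1 point per pool (circles, 2 CAC control pools; squares, 3 sporadic control pools). In each of these genes both circles lie below all 3 squares; for Ccn1 they stand at 30 and 28 against 839 to 1097.

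Several genes outside the list that are known to answer growth factor, stretch or stress signals were among the 12 lowest. Trib1, a pseudokinase that steers C/EBP proteins to degradation, read 114 and 86 against 684, 1090 and 1116 (-3.25 ± 0.30, adjusted p = 0.0146). Rasd1, a small GTPase induced by dexamethasone, read 51 and 46 against 532, 447 and 682 (-3.49 ± 0.22, adjusted p = 0.0043). Edn2, the vasoconstrictor peptide endothelin 2, read 67 and 26 against 1062, 981 and 1464 (-4.79 ± 0.51, adjusted p = 0.0203). All 3 separated the groups without overlap. Acta1, skeletal muscle alpha-actin, read 124 and 33 against 1332, 1156 and 1383 (-4.33 ± 0.65, adjusted p = 0.0466). The probe set annotated LOC640441, which has no current gene name in the table used, read 12 and 12 against 378, 420 and 454 (-5.12 ± 0.10, adjusted p = 8.58e-05). Rasd1 and LOC640441 kept the call whichever pool was left out. Edn2 and Acta1 lost it without any one sporadic pool (adjusted p up to 0.0967 and 0.169), and Trib1 lost it without CAC control 2, sporadic control 2 or sporadic control 3 (adjusted p up to 0.0797).

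Among ligands of the ERBB receptors, which drive epithelial growth and repair, amphiregulin was lower in CAC control. Areg read 352 and 356 in the CAC pools and 2024, 3934 and 3943 in the sporadic pools (-3.16 ± 0.38, 8.91-fold, adjusted p = 0.0272). Hbegf, heparin-binding EGF-like growth factor, has 2 probe sets. The brighter one read 655 and 327 against 2060, 3107 and 3260 and did not pass (-2.57 ± 0.42, adjusted p = 0.0554), and the dimmer one, at 166 and 130 against 907, 1672 and 1584, did (-3.19 ± 0.35, adjusted p = 0.0228). Both place the CAC pools below the sporadic pools. Ereg, epiregulin, was near the floor in all 5 pools, at 5 to 7. Of the 13 ERBB ligands, receptors and regulators 2 passed, both lower: Areg and Lrig1, a membrane protein that restrains ERBB receptors. Tgfa ran the other way without passing, at 191 and 70 against 47, 41 and 47 (1.36, adjusted p = 0.231). A list of 12 genes known to be induced by ERK and to feed back on it was added after values had been seen. In it 1 gene passed, Phlda1, at 121 and 87 against 491, 781 and 726 (-2.67, adjusted p = 0.0225). Areg lost the call without either CAC pool and without sporadic control 2 or 3 (adjusted p up to 0.111).

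Heat shock genes lay lower in CAC control as well. Of the 18 heat shock genes and cytosolic chaperones on the array 16 reached a mean of 32. In this list 3 passed, all lower, against 3.57% of all genes, and 11 were lower at an unadjusted p under 0.05. In 15 members both CAC pools lay below all sporadic pools, against 19.9% of all genes, and the median was -0.79. Hspa1a, an inducible Hsp70, read 16 and 16 against 361, 151 and 173 (-3.72 ± 0.46, adjusted p = 0.0295). Hspa1b, its neighbouring near-copy, read 101 and 86 against 1750, 699 and 940 (-3.49 ± 0.47, adjusted p = 0.0354). Signal of these copies may not be fully separable on the array. Ahsa1, which activates the Hsp90 ATPase, read 217 and 268 against 467, 428 and 409 (-0.85 ± 0.12, adjusted p = 0.044). Dnajb1, the Hsp40 partner of Hsp70, read 738 and 477 against 1463, 2217 and 1999 and did not pass (-1.65, adjusted p = 0.0695). Without CAC control 1, CAC control 2, sporadic control 1, 2 or 3 the number that passed was 1, 3, 2, 0 or 1. With all 14 arrays in the fit 6 passed, Ahsa1 among them (adjusted p = 0.00722). In that fit Hspa1a and Hspa1b did not pass (adjusted p = 0.107 and 0.111). Hspa1a and Hspa1b lost the call without either CAC pool and without sporadic control 2 or 3 (adjusted p up to 0.112 and 0.128). Ahsa1 lost it without CAC control 1 or any one sporadic pool (adjusted p up to 0.166).

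Both Hsp70 genes carry a heat shock element, the paired site that heat shock factor binds, and their promoters are shown because these were the 2 chaperones with the largest differences. The 250 bases before each start are on chromosome 17 of RefSeq's GRCm38.p6 table, minus strand, at chr17:34972157-34972406 for Hspa1a and chr17:34959239-34959488 for Hspa1b. Capitals mark GAANNTTC, searched on both strands (the motif reads the same on either), whose last base lies 97 bases before the start in both:
Hspa1a: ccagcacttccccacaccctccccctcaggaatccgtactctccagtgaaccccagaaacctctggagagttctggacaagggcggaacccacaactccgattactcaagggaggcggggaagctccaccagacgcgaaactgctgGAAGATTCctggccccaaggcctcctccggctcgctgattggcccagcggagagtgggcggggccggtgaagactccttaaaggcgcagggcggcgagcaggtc
Hspa1b: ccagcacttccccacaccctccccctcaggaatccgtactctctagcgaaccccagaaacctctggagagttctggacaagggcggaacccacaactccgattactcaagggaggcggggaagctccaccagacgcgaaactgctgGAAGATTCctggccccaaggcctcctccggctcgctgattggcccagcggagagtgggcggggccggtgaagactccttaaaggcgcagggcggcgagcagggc
The 2 sequences differ at 3 of 250 bases. In the 300-base windows of that table, which run 50 bases past the start, the motif stood in 8 of the 13 heat shock members that have a window and in 9.04% of 27025 genes. Ahsa1, which also passed, has no match in its window.

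The unfolded protein response, which matches the folding capacity of the endoplasmic reticulum to its load, was split. Of 19 members 2 passed as lower: Herpud1, at 555 and 452 against 1048, 1219 and 1161 (-1.19 ± 0.13, adjusted p = 0.0209), and Dnajb9, at 241 and 279 against 478, 593 and 473 (-0.98 ± 0.15, adjusted p = 0.0449). Pdia4 and Sdf2l1, lumenal folding factors, lay at 1.34 and 1.18 with both CAC pools above the sporadic pools and did not pass (adjusted p = 0.0613 and 0.088). The list's median was -0.55. Of the 19 members 18 reached a mean of 32, and 7.61% of all genes that reached it passed as lower, against 3.57% of all genes. Without sporadic control 1 the list had 2 members higher and 0 lower, and without sporadic control 2 or 3 it had 0 of either. With all 14 arrays in the fit 2 were higher and 2 lower. Herpud1 lost the call without any one sporadic pool and Dnajb9 without any one pool (adjusted p up to 0.0972 and 0.135).

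Further regulatory lists had 1 or 2 members lower and 0 higher, against 3.57% of all genes lower and 7.61% of genes with a mean of at least 32. That mean was reached by 15 of 19 STAT3 and NF-kB feedback genes and 14 of 20 p53 targets. It was also reached by 9 of 13 glucocorticoid and mineralocorticoid genes. Cebpb, a mediator of the acute-phase response, read 103 and 85 against 219, 233 and 220 (-1.26 ± 0.10, adjusted p = 0.0102), and Cebpd read 161 and 180 against 353, 351 and 287 (-0.95 ± 0.13, adjusted p = 0.0374). They were the 2 of 19 STAT3 and NF-kB feedback genes that passed. Gdf15, a stress-induced cytokine, read 48 and 52 against 379, 241 and 225 (-2.45 ± 0.28, adjusted p = 0.0246) and was the 1 of 20 p53 targets that passed. Nr3c1, the glucocorticoid receptor, read 103 and 101 against 167, 186 and 174 (-0.78 ± 0.06, adjusted p = 0.009), and with Dusp1 was one of 2 of 13 glucocorticoid and mineralocorticoid genes that passed. Nr3c1 kept the call whichever pool was left out. Cebpb lost it without any one sporadic pool, Cebpd without all but sporadic control 3 in turn, and Gdf15 without either CAC pool or sporadic control 2 or 3 (adjusted p up to 0.068, 0.143 and 0.0996).

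Genes of mature, surface-facing absorptive colonocytes were higher in CAC control. Of 20 members on the array 6 were higher and 0 were lower, 13 were higher and 2 lower at an unadjusted p under 0.05, and in 15 both CAC pools lay above all sporadic pools, against 16.6% of all genes. The median was 0.70. Of the 20 members 19 reached a mean of 32, and 2.3% of all genes that reached it passed as higher. Car1, a carbonic anhydrase abundant in the colon, read 18534 and 12035 against 5130, 3493 and 3712 (1.88 ± 0.29, 3.69-fold, adjusted p = 0.0497). Krt20, a keratin of differentiated surface cells, read 6053 and 4875 against 1790, 1466 and 1433 (1.80 ± 0.16, adjusted p = 0.0127). Dpep1, a brush border dipeptidase, read 210 and 230 against 80, 71 and 62 (1.64 ± 0.14, adjusted p = 0.0105). Each of these 3 genes was high in both CAC pools with no overlap.

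Ceacam1, an adhesion molecule of the apical membrane, read 5507 and 5942 against 2573, 2379 and 2849 (1.14 ± 0.10, adjusted p = 0.0115). Guca2a, the peptide guanylin, and Slc16a1, a transporter of butyrate and other monocarboxylates, were the other members that passed (1.04 and 0.63, adjusted p = 0.0166 and 0.0484). Slc26a3, the chloride-bicarbonate exchanger, read 4914 and 3378 against 1657, 2069 and 1789 without passing (1.15, adjusted p = 0.0726). Cyp2c55 had the widest gap among bright members, at 8674 and 3538 against 566, 821 and 1123, and also did not pass (2.78, adjusted p = 0.0821). Mall ran the other way, at 108 and 71 against 273, 262 and 202 (-1.48, adjusted p = 0.066). Of the 20 members 4 lay below 0, and in 2 both CAC pools lay below all sporadic pools. Without CAC control 1, CAC control 2, sporadic control 1, 2 or 3 the number that passed as higher was 3, 2, 3, 2 or 3, and 1 member passed as lower without sporadic control 3. Car1 lost the call without any one pool (adjusted p up to 0.172), Krt20 without sporadic control 2 or 3 (up to 0.0777), Dpep1 without CAC control 2 or sporadic control 2 (up to 0.0715) and Ceacam1 without CAC control 2 or sporadic control 1 (up to 0.0635). With all 14 arrays in the fit 3 members were higher, Dpep1 among them, and 1 was lower. Car1, Krt20 and Ceacam1 did not pass there (adjusted p = 0.493, 0.141 and 0.1).

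In a list of 19 crypt base and stem cell genes, added after values had been seen, 6 were lower and 1 was higher. Of the 19 members 14 reached a mean of 32. Among all genes that reached it 7.61% passed as lower, and among all genes 3.57%. In the list 12 members lay below 0 and 7 at or above it, with a median of -0.20. Ascl2, the Wnt-dependent transcription factor of intestinal stem cells, read 26 and 23 against 76, 89 and 67 (-1.65 ± 0.16, adjusted p = 0.0155). Rnf43, a ubiquitin ligase that removes Wnt receptors, read 19 and 20 against 48, 65 and 52 (-1.48 ± 0.16, adjusted p = 0.0226), and Axin2, a scaffold of the beta-catenin destruction complex, read 32 and 36 against 70, 66 and 76 (-1.06 ± 0.10, adjusted p = 0.0151). These 3 Wnt targets were 2.08-fold to 3.14-fold lower in CAC control, at low absolute signal in both groups. They were also the 3 of 20 members of the Wnt target list that passed. In that list 10 members lay above 0 and 10 below, with a median of -0.02, and 1 passed with all 14 arrays in the fit.

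Lrig1 read 143 and 158 against 314, 345 and 286 (-1.06 ± 0.11, adjusted p = 0.0177). Cdx1, a caudal-type homeobox factor of the intestine, read 603 and 772 against 1489, 1611 and 1497 (-1.17 ± 0.13, adjusted p = 0.0231), and Hopx read 415 and 453 against 782, 772 and 902 (-0.91, adjusted p = 0.0205). Lgr5, the receptor that marks these stem cells, was near the floor, at 7 and 7 against 7, 11 and 11. Prom1 (CD133), a membrane protein that marks crypt cells in the mouse intestine, was the member that passed as higher: it read 1294 and 654 against 152, 129 and 95 (2.90 ± 0.41, 7.48-fold, adjusted p = 0.0398). Without CAC control 1, CAC control 2, sporadic control 1, 2 or 3 the number that passed as lower was 2, 2, 0, 1 or 4, and it was 2 with all 14 arrays in the fit. Rnf43 lost the call without any one pool (adjusted p up to 0.0853). Ascl2 lost it without either CAC pool or sporadic control 1, Axin2 without sporadic control 1 or 2, Lrig1 without all but sporadic control 3 in turn, and Cdx1 without any one sporadic pool (up to 0.0746, 0.0715, 0.0814 and 0.11). Prom1 lost it without CAC control 1 or any one sporadic pool (up to 0.155).

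**Figure D3:**
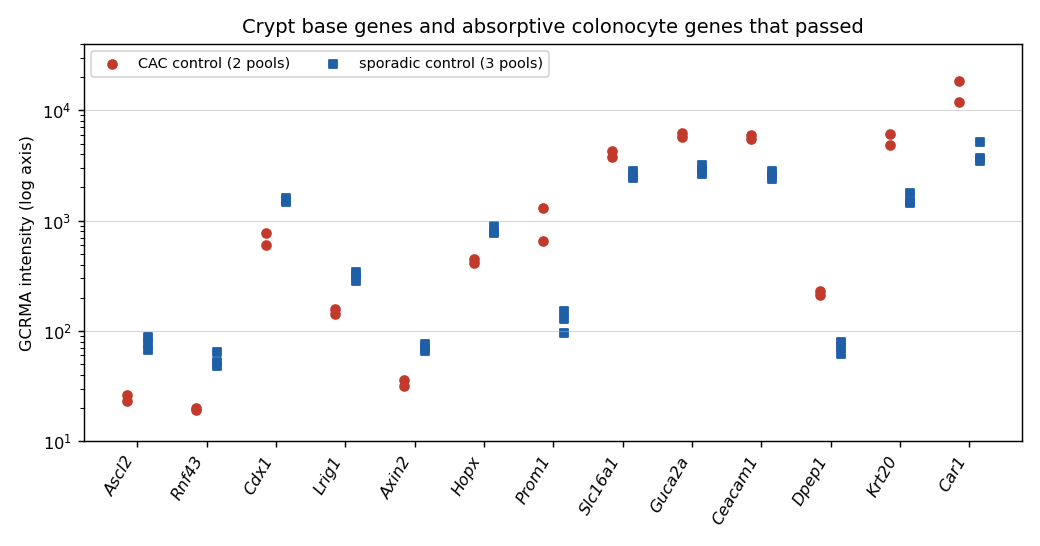
GCRMA intensity on a log axis for the members of the crypt base list (Ascl2 to Prom1) and of the absorptive colonocyte list (Slc16a1 to Car1) that passed, with 1 point per pool (circles, 2 CAC control pools; squares, 3 sporadic control pools). The 6 crypt base genes left of Prom1 have both circles below the squares; Prom1 and the 6 colonocyte genes have both circles above them.

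No proliferation gene passed. In limma 0 of 25 members passed, 0 reached an unadjusted p under 0.05 (1 higher at any intensity), and 0 passed with all 14 arrays in the fit; the median was 0.21, and the members lay between -0.95 and 0.62. Top2a, the mitotic topoisomerase, read 96 and 140 against 179, 77 and 73, and Pcna, the replication clamp, read 1100 and 1507 against 1985, 1878 and 1644. Ion and water transport genes also gave 0 of 22 (5 higher and 2 lower at an unadjusted p under 0.05, 3 higher with all 14 arrays), with a median of 0.34.

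Secretory cell genes showed few calls. Spdef, a transcription factor of goblet cell maturation, was the 1 of 14 goblet cell genes that passed, at 77 and 71 against 109, 104 and 101 (-0.50 ± 0.06, adjusted p = 0.033). The mucus layer proteins Zg16 and Clca1 ran the other way without passing: Zg16 read 28259 and 31599 against 16641, 10172 and 11589 (1.26, adjusted p = 0.086), and Clca1 read 9289 and 9939 against 4370, 2439 and 3143 (1.58, adjusted p = 0.0703). Spdef lost its call without any one pool (adjusted p up to 0.137), and without CAC control 1 or sporadic control 1 the list had 1 or 2 members higher and 0 lower. Enteroendocrine genes gave 0 of 17 (5 higher and 2 lower at an unadjusted p under 0.05 at any intensity). Tuft cell genes could not pass, since 0 of 10 reached a mean of 32, and at any intensity 0 had an unadjusted p under 0.05. Small intestinal genes gave 0 of 12 (2 higher and 2 lower at an unadjusted p under 0.05 at any intensity), among them Fabp6, the ileal bile acid binding protein, at 29 and 23 against 89, 153 and 85 (-2.02, adjusted p = 0.0597).

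Of 35 Hox and positional genes 2 passed, Cdx1 and Gata6, both lower, and the list's median was 0. Only 9 of the 35 reached a mean of 32 and could pass. Lower calls made up 3.57% of all genes and 7.61% of the genes that reached that mean. Gata6, a zinc finger factor of gut epithelium, read 193 and 173 against 297, 354 and 341 (-0.85 ± 0.11, adjusted p = 0.0314), a call lost without either CAC pool and without sporadic control 2 or 3 (adjusted p up to 0.116). Cdx2 read 56 and 35 against 11, 11 and 12 with an adjusted p of 0.0285, but its mean was under the intensity minimum. Hoxb13, which marks the distal colon, was bright in all 5 pools, at 3446 and 3913 against 4539, 4401 and 4750 (-0.31, adjusted p = 0.115).

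**Figure D4:**
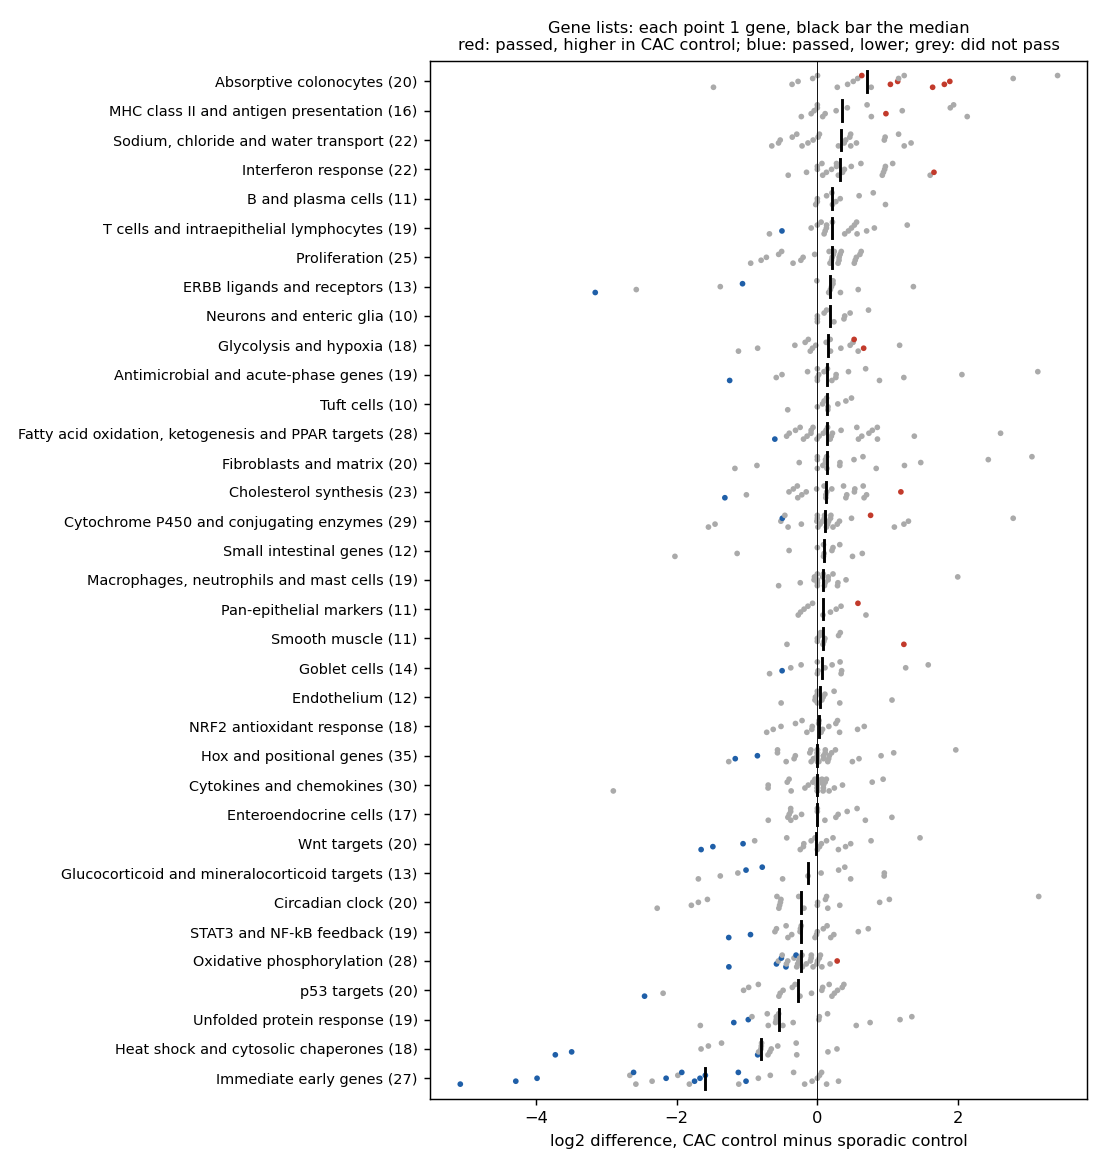
Log2 difference, CAC control minus sporadic control, of every member on the array (x axis) for 35 gene lists (y axis, number of genes in brackets); each point is 1 gene and each black bar the list's median. Immediate early genes have the lowest median (-1.59) and absorptive colonocyte genes the highest (0.70).

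Oxidative phosphorylation had 5 of 28 members lower and 1 higher, with a median of -0.23. All 28 reached a mean of 32. Lower calls made up 7.61% of the genes that reached it and 3.57% of all genes. At an unadjusted p under 0.05, 12 were lower and 1 was higher. In 15 both CAC pools lay below all sporadic pools, against 19.9% of all genes. After quantile normalization 3 were lower and 1 higher. Sdhc, a subunit of succinate dehydrogenase, had the largest difference, at 754 and 651 against 1654, 1775 and 1599 (-1.26 ± 0.09, adjusted p = 0.0071). Ndufv1, a subunit of complex I, read 1079 and 1095 against 1569, 1526 and 1552 (-0.51 ± 0.03, adjusted p = 0.00222). Uqcrc1 and Sdhd were also lower (-0.58 and -0.45, adjusted p = 0.015 and 0.0096), as was Cox5a, while Ndufa4 was higher (-0.30 and 0.28). Sdhc and Ndufv1 kept the call whichever pool was left out, Sdhd lost it without sporadic control 2 and Uqcrc1 without sporadic control 1 or 2 (adjusted p up to 0.0683 and 0.089). With all 14 arrays in the fit Ndufv1 did not pass (adjusted p = 0.111), while Sdhc, Uqcrc1 and Sdhd did. Glycolysis and hypoxia had 2 of 18 members higher and 0 lower. These were Aldoa, the glycolytic aldolase, at 7409 and 6988 against 4255, 4758 and 4683 (0.66 ± 0.07, adjusted p = 0.0197), and Vegfa (0.52 ± 0.07, adjusted p = 0.0379). Aldoa lost the call without either CAC pool or sporadic control 2 or 3, and Vegfa without any one pool (up to 0.0747 and 0.143).

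Cholesterol synthesis had 1 of 23 members higher and 1 lower. Tm7sf2, a sterol reductase, read 189 and 212 against 92, 89 and 83 (1.19 ± 0.08, adjusted p = 0.00618), and Stard4, a sterol carrier, read 301 and 337 against 966, 701 and 733 (-1.31 ± 0.18, adjusted p = 0.0374). Fatty acid oxidation had 1 of 28 lower (Acaa2, a mitochondrial thiolase, -0.60 ± 0.07, adjusted p = 0.0292) and 0 higher. The cytochrome P450 and conjugating enzyme list had 1 of 29 higher, Gstt1, a glutathione transferase, at 396 and 380 against 236, 226 and 227 (0.76 ± 0.04, adjusted p = 0.00248), and 1 lower, Adh1 (-0.50 ± 0.06, adjusted p = 0.0229). Gstt1 kept its call whichever pool was left out. Stard4, Acaa2 and Adh1 lost theirs without either CAC pool and 2 of the sporadic pools in turn, and Tm7sf2 without sporadic control 2 (adjusted p up to 0.127, 0.105, 0.0868 and 0.0511). With all 14 arrays in the fit Gstt1, Acaa2, Adh1 and Tm7sf2 did not pass (adjusted p = 0.117, 0.137, 0.784 and 0.0573). Stard4 passed there (adjusted p = 0.0146). The NRF2 antioxidant list had 0 of 18 (1 higher and 2 lower at an unadjusted p under 0.05).

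Circadian clock genes, whose level depends on the hour of collection, gave 0 of 20 (3 higher and 3 lower at an unadjusted p under 0.05 at any intensity; with all 14 arrays in the fit 1 was higher and 3 were lower), and their median was -0.23. Collection times are not given in the labels. Npas2, a partner of the core activator Bmal1, read 65 and 59 against 7, 7 and 7 (3.15, adjusted p = 9.43e-05), a bright CAC signal against the floor whose mean stayed under the intensity minimum. Its partner Arntl (Bmal1) read 22 and 33 against 21, 20 and 24 (0.32, adjusted p = 0.451). Clock read 130 and 147 against 130, 129 and 124 (0.12, adjusted p = 0.438). Of the repressors these activators drive, Per1 read 18 and 16 against 32, 65 and 79 (-1.69, adjusted p = 0.15), Per2 read 16 and 31 against 30, 118 and 129 (-1.79, adjusted p = 0.35), and Nr1d1 read 75 and 30 against 166, 139 and 119 (-1.56, adjusted p = 0.172). Sporadic control 1 was the lowest of its group for Per1 and Per2.

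The output gene Dbp did not separate the groups, at 951 and 730 against 873, 905 and 725 (0.00). Csnk1d, a kinase that marks PER proteins for degradation, read 943 and 848 against 383, 427 and 521 (1.02, adjusted p = 0.0518). Bhlhe40 read 967 and 827 against 1014, 1520 and 1381 (-0.52, adjusted p = 0.294). Cry1, Cry2, Tef, Nfil3, Nr1d2 and Per3 overlapped between groups, with differences from -0.57 (Cry2) to -0.19 (Per3). Csnk1e, Bhlhe41, Hlf and Rora read 15 or less in all 5 pools.

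Interferon and antigen presentation genes had 1 call each. Oasl2, an interferon-induced oligoadenylate synthetase-like protein, was the 1 of 22 interferon genes that passed, at 75 and 59 against 19, 19 and 26 (1.66 ± 0.22, adjusted p = 0.0347); in 12 of the 22 both CAC pools lay above all sporadic pools, against 16.6% of all genes. Zbp1, a sensor of Z-form nucleic acids, read 79 and 65 against 26, 17 and 18 (1.84 ± 0.25, adjusted p = 0.0366). H2-K1, a class I MHC chain, was the 1 of 16 MHC and antigen presentation genes that passed, at 4950 and 4688 against 2251, 2541 and 2576 (0.97 ± 0.08, adjusted p = 0.0101), and in 8 of the 16 the CAC pools lay above without overlap. The class II chain H2-Aa read 199 and 114 against 28, 31 and 47 (2.13, adjusted p = 0.0684), and its chaperone Cd74 read 306 and 153 against 71, 72 and 39 (1.89, adjusted p = 0.127). H2-K1 lost the call without sporadic control 2, Oasl2 without all but sporadic control 3 in turn, and Zbp1 without either CAC pool or sporadic control 2 or 3 (adjusted p up to 0.0597, 0.134 and 0.127). With all 14 arrays in the fit 0 interferon genes passed.

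Cytokines and chemokines gave 0 of 30 (1 higher and 3 lower at an unadjusted p under 0.05 at any intensity). Cxcl1, a neutrophil attractant, read 6 and 6 against 42, 79 and 27 (-2.90, adjusted p = 0.0698). Of 19 antimicrobial and acute-phase genes 1 passed: Pglyrp1, a peptidoglycan-binding protein, at 1214 and 921 against 2734, 2406 and 2397 (-1.25 ± 0.16, adjusted p = 0.0299), a call lost without any one sporadic pool (adjusted p up to 0.124). Slpi, a protease inhibitor of mucosal surfaces, read 341 and 207 against 51, 59 and 87 (2.05, adjusted p = 0.0665).

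The CAC control pools differed from each other in a small set of genes. In 7 genes CAC control 1 was at least 8-fold above CAC control 2 and in 0 the reverse held, while 3 genes spread as widely among the sporadic pools. Reg3b, an antimicrobial lectin, read 335 in CAC control 1, 12 in CAC control 2 and 6 to 9 in the sporadic pools. Tmigd1, an adhesion protein, read 320 and 19 against 8, 7 and 7, and Cyp2c65 read 338 and 17 against 26, 75 and 81. Plet1, Nts and Sptssb were also in the set. In the genes named here CAC control 2 lay nearer to the sporadic pools than CAC control 1 did.

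The summed intensity of 11 pan-epithelial markers was 92952 to 94729 in the CAC pools and 81422 to 85645 in the sporadic pools. Epcam, an epithelial adhesion molecule, was the 1 member that passed, at 12291 and 11517 against 7512, 8013 and 8431 (0.58 ± 0.07, adjusted p = 0.0269), and that call was lost without any one pool (adjusted p up to 0.122). Fewer cells of a type and less RNA per cell cannot be told apart in these pools. Fibroblast and matrix genes gave 0 of 20, of which 2 reached a mean of 32 (4 higher at an unadjusted p under 0.05 at any intensity), with summed levels of 394 to 560 against 295 to 387. Dcn, a matrix proteoglycan, read 87 and 45 against 6, 12 and 6 (3.05, adjusted p = 0.0578) and Col3a1 read 106 and 37 against 11, 13 and 11 (2.43, adjusted p = 0.0934), whereas Col1a1 read 28 and 28 against 25, 18 and 25.

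Smooth muscle genes summed to 232 to 290 against 221 to 248. Tpm2, a tropomyosin, was the 1 of 11 that passed, at 100 and 71 against 34, 35 and 39 (1.23 ± 0.19, adjusted p = 0.0475; up to 0.176 without any one sporadic pool), while Des, Cnn1 and Myh11 read 6 to 12 throughout. Of 12 endothelial genes 1 reached a mean of 32 and 0 passed (1 higher and 1 lower at an unadjusted p under 0.05 at any intensity), and of 10 genes of neurons and glia 0 reached it, so that none could pass (2 higher at any intensity). Pecam1 and S100b read 5 in every pool. Macrophages, neutrophils and mast cells gave 0 of 19, of which 4 reached a mean of 32 (2 higher at an unadjusted p under 0.05 at any intensity), summing to 502 to 618 against 522 to 599, and Cd68 read 5 in every pool. Adgre1 (F4/80) read 83 and 67 against 18, 26 and 14 (1.99, adjusted p = 0.0554). B and plasma cell genes gave 0 of 11, of which 1 reached a mean of 32 (2 higher at an unadjusted p under 0.05 at any intensity), and summed to 1663 to 2024 against 1074 to 1521. That sum was nearly all Sdc1, a proteoglycan that epithelium also makes, at 1934 and 1599 against 1464, 1018 and 1062 (0.59, adjusted p = 0.23), and Cd79a read 5 to 6. T cell and intraepithelial lymphocyte genes summed to 408 to 454 against 473 to 500, with Cd3e at 7 to 12, and most of that sum was Cd8b1. Of the 19 members 16 lay at or above 0, with a median of 0.21. In 7 both CAC pools lay above all sporadic pools (16.6% of all genes), and in 1 below (19.9% of all genes). Cd8b1, a CD8 chain, was the 1 of 19 that passed, at 246 and 264 against 370, 371 and 343 (-0.50 ± 0.06, adjusted p = 0.0281; lost without any one pool, up to 0.123). The part of these cells in the differences above was not tested.

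Alpha-globin had the highest difference of all passing genes. In a list of 7 red cell genes 1 passed. Hba-a1 read 8901 and 8321 in the CAC pools and 485, 334 and 684 in the sporadic pools (4.16 ± 0.35, 17.9-fold, adjusted p = 0.011), and 2 further probe sets gave 4.97 and 3.89 and passed. The fourth Hba-a1 probe set, at 5 to 6 in all 5 pools, gave 0.13 and did not pass. Other red cell genes, listed after the Hba-a1 difference of 4.16 was seen, did not follow at comparable signal. Of the 7 genes in the list 6 lay above 0 and 1 below. Hbb-b1, a beta-globin, read 10 and 10 against 6, 6 and 6; Slc4a1, the anion exchanger of red cells, read 11 and 11 against 15, 10 and 11; and Alas2, the erythroid heme synthase, read 17 and 4 against 4, 4 and 4. The Hba-a1 call was lost without either CAC pool or sporadic control 1 (adjusted p up to 0.0622).

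Of the other genes with the highest differences, 4 kept the call whichever pool was left out. Stk10, a kinase that phosphorylates membrane-cytoskeleton linkers, read 122 and 106 against 21, 22 and 22 (2.39 ± 0.09, adjusted p = 0.000791). Rdh9, of the retinol dehydrogenase family, read 435 and 374 against 89, 95 and 95 (2.12 ± 0.09, adjusted p = 0.00118). Gpr137b, a lysosomal membrane protein, read 244 and 196 against 54, 53 and 49 (2.07 ± 0.12, adjusted p = 0.00381), and Endod1 read 1126 and 962 against 261, 268 and 311 (1.90 ± 0.12, adjusted p = 0.00494). Replicate pools of these genes lay close together. Capg, an actin filament capping protein, read 94 and 85 against 22, 23 and 21 (2.02 ± 0.08, adjusted p = 0.00115). Without either CAC pool Capg no longer met both criteria, though its adjusted p stayed at 0.0131 or less, because its mean fell under 32. Elovl6, a fatty acid elongase, read 102 and 136 against 22, 30 and 31 (2.11 ± 0.24, adjusted p = 0.0234), and Stom, the membrane protein stomatin, read 557 and 392 against 144, 107 and 126 (1.91 ± 0.23, adjusted p = 0.027). Elovl6 lost its call without any one pool and Stom without CAC control 1 or any one sporadic pool (up to 0.1 and 0.102).

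Of 6 long nuclear RNAs, a list added after values had been seen, 2 were higher in CAC control, Malat1 and Tug1. Of the 6 members 3 reached a mean of 32, and 1.08% of all genes passed as higher. Malat1, a nuclear-retained long RNA, read 734 and 334 against 29, 35 and 39 (3.86 ± 0.41, adjusted p = 0.0208), and a second probe set gave 3.89; 2 dim probe sets gave 0.82 and 0.52 and did not pass. Tug1 read 470 and 419 against 201, 194 and 225 on 1 probe set (1.11, adjusted p = 0.0123) and 248 and 291 against 261, 277 and 257 on another (0.02), and the third gave -0.04. In the tumors the Tug1 probe set that passed in the controls lay at 1.11 (adjusted p = 0.02). The second Tug1 probe set lay at -0.54 there (adjusted p = 0.343). The 3 probe sets for 18S ribosomal RNA read 32 to 84 on the CAC control arrays and 6 to 10 on the sporadic control arrays, and 11 to 111 against 6 to 9 on the tumor arrays of the same blocks. The log2 ratio of 3' to 5' signal of beta-actin was 0.90 and 0.98 against 1.16, 1.28 and 0.86. Malat1 lost its call without any one sporadic pool (adjusted p up to 0.106).

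Cytosolic ribosomal protein genes, a list added after values had been seen, had 8 of 29 members lower and 1 higher, with a median of -0.29. Of the 29 members 27 reached a mean of 32. All genes that reached it had a median of -0.17, and 7.61% of them passed as lower, against 3.57% of all genes. Rpl22 was the lowest, at 72 and 76 against 156, 192 and 184 (-1.26, adjusted p = 0.0136), and bright members such as Rpl5 differed by less, at 10666 and 10660 against 15533, 14523 and 15952 (-0.52, adjusted p = 0.0175). After quantile normalization 2 were lower and 0 higher. Without CAC control 1, CAC control 2, sporadic control 1, 2 or 3, 3, 3, 2, 1 or 1 were lower. Of 15 genes of basal transcription and RNA processing, also added, 1 was lower (Polr2c, -0.69, adjusted p = 0.0428) and 0 were higher. The part of labelling or RNA quality in the differences between groups was not tested.

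Apc itself is measured by 3 probe sets, none of which passed. The brightest read 128 and 157 in CAC control and 77, 97 and 82 in the Apc Min/+ pools (0.74 ± 0.16, 1.67-fold, adjusted p = 0.09), with no overlap. The second read 32 and 38 against 21, 29 and 29 (0.42, adjusted p = 0.358), and the third was near the floor at 11 and 12 against 8, 8 and 9 (0.47, adjusted p = 0.0616). All 3 ran in the same direction. With all 14 arrays in the fit the brightest probe set passed (adjusted p = 0.00916), and over the other alternatives computed for it the adjusted p lay between 0.0525 and 0.228. In the tumors of the same models this probe set read 129 to 178 and 121 to 148 (0.20, adjusted p = 0.31). The Min allele differs from wild type by a point mutation, and whether these probe sets tell the alleles apart was not tested.

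Nnt encodes nicotinamide nucleotide transhydrogenase, which is partly deleted in the C57BL/6J substrain, the background named for both groups. It read 244 and 334 in CAC control and 85, 86 and 87 in sporadic control (1.73 ± 0.16, 3.32-fold, adjusted p = 0.0133), and a second probe set read 47 and 35 against 17, 17 and 20 (1.18, adjusted p = 0.0468). That second probe set did not pass, because its mean was under 32. In the tumors the first probe set read 158 to 220 in the CAC model and 155 to 268 in the sporadic model (-0.06, adjusted p = 1). For the first probe set the difference between the contrasts was 1.79 ± 0.28 (adjusted p = 0.0014). The second read 32 to 44 and 25 to 36 in the tumors (0.27, adjusted p = 0.254). The sporadic control pools were low and the sporadic tumors, of the same labelled strain, were not. Whether these probe sets lie in the deleted exons is not given in the files. The Nnt call was lost without any one sporadic pool (adjusted p up to 0.0824).

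The same contrast in tumors, 4 CAC against 5 sporadic tumors, shares no array with the controls but the same blocks and genotypes. There 1080 of 13085 genes passed (8.25%), 315 higher (2.41%) and 765 lower (5.85%) in CAC tumors. Of the 608 genes that passed in the controls, 469 (77.1%) had the same sign in the tumors, against 63.5% of the 6133 genes of at least 32. In 164 (27.0%) the tumors passed in the same direction, against 12.9% of the 6133, and in 5 they passed in the opposite direction. Across the 608 genes the 2 differences correlated at r = 0.60, and across the 6133 at 0.43; genes are not independent replicates. The difference between the contrasts was tested in 1 model over all 14 arrays and passed for 133 of the 608 genes (21.9%), for 6.41% of the 6133 and for 3% of all genes.

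**Figure D5:**
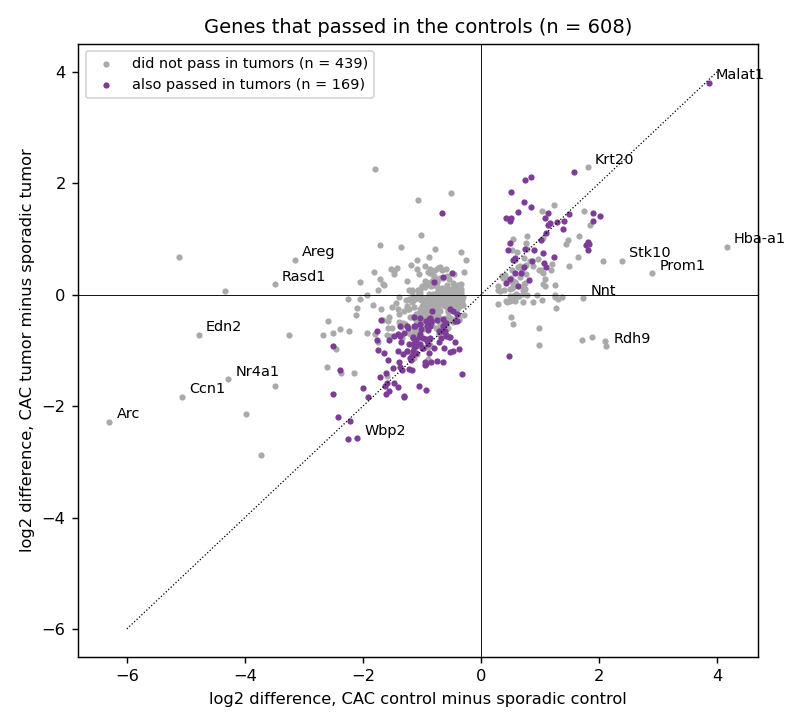
Log2 difference in tumors (CAC tumor minus sporadic tumor, y axis) against that in control epithelium (x axis) for the 608 genes that passed in the controls; the dotted line marks equal differences. Malat1 lies close to the line (3.86 and 3.81), whereas Edn2, Rasd1 and Areg stand at -0.72, 0.19 and 0.62 on the y axis.

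Genes with like differences in both contrasts included Malat1 (3.86 in controls, 3.81 in tumors), Ddx19a, an RNA helicase (-2.25 and -2.59), Hdac11, a histone deacetylase (-2.22 and -2.28), Ass1, argininosuccinate synthase (-2.43 and -2.20), Wbp2 (-2.10 and -2.58), Epn1 (-1.92 and -1.83) and Anxa11 (-2.51 and -1.78). They were named after their values were seen, as the genes with the largest differences passing in both contrasts. Wbp2, a WW domain binding protein, read 27 and 27 in CAC control and 96, 143 and 112 in sporadic control. Ascl2 and Axin2 did not follow 1 pattern: Ascl2 was at 208 in CAC and 184 in sporadic tumors (0.17, adjusted p = 1), while Axin2 was at 451 and 1405 (-1.64, adjusted p = 0.009). Rnf43 was lower in both contrasts (-1.48 and -1.32, adjusted p = 0.0226 and 0.0181).

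Among the 12 lowest and 12 highest genes of the control contrast, 10 differed from the tumor contrast by the model's test. Areg read 115 to 205 in CAC tumors and differed there by 0.62 from sporadic tumors (adjusted p = 0.637), against -3.16 in the controls. Rasd1 and Edn2 were near the floor in tumors, with means of 6.15 to 14.0. Ccn1 kept its sign, at a mean of 175 in CAC and 626 in sporadic tumors (-1.84, adjusted p = 0.0706). Prom1 was bright in both kinds of tumor, at means of 2359 and 1812 (0.38, adjusted p = 0.304). Immediate early genes as a list had a median of -0.46 in the tumors with 0 of 27 passing, and heat shock genes -0.17 with 3 lower. Arc, Fosb and Hspa1a differed by -2.28, -2.15 and -2.88 in the tumors without passing, and for these 3 genes the test between contrasts did not pass either (adjusted p = 0.137, 0.535 and 0.862).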

How the data were processed

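RNA from purified epithelium was hybridised to Affymetrix arrays. The deposited intensities are linear whole numbers that the authors made with GCRMA, per the submitters' processing notes; its version is not given in the sources used here. Columns of the authors' fold (ratio) and p-value, deposited beside them per the file headers, were not used. Log2 was taken with no offset. Of 22690 probe sets 64 array controls were removed. limma 3.58.1 in R 4.3.3 (lmFit, eBayes with an intensity trend) was fitted to the 5 control arrays, and Benjamini-Hochberg adjustment ran over 22626 probe sets; tumors were fitted on 9 arrays and the difference between contrasts on all 14. The number of arrays limits the precision. A gene was represented by its probe set with the largest mean over the 5 controls. Symbols in the table were updated through RefSeq: of 13153, 10228 were current, 2370 were updated and 555 kept; 831 probe sets with several symbols were named for no gene. Members and gene lists were chosen with earlier results of these data known, and 6 lists were added after values were seen. Genes named by rule were Apc, Nnt, clock members (those reported here), the 12 highest and 12 lowest that passed at least 2-fold with no overlap, and up to 4 passing members of each list with the largest differences; further members are named as examples. On simulated arrays of this design the fit missed most 2-fold changes. Replicate numbers are shared by the groups, but nothing in the labels pairs the pools. A few list members are not reported here.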

Additional observations from a re-analysis of the deposited data

Results flagged for a closer look

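Among Apc, Nnt and the lowest and highest genes named by rule, 11 had a control difference that departed from the same contrast in tumors. This was judged by the test of the difference between contrasts in 1 limma model over all 14 arrays. The same test passed for 133 of the 608 genes that passed in the controls, so the 11 are a selection. The values below are the log2 difference of the controls minus that of the tumors. It was negative for LOC640441 (-5.79), Acta1 (-4.40), Edn2 (-4.07), Areg (-3.78), Rasd1 (-3.68) and Ccn1 (-3.24). It was positive for Hba-a1 (3.31), Rdh9 (3.05), Prom1 (2.52), Nnt (1.79) and Stk10 (1.78). Adjusted p lay between 1.34e-07 (Rasd1) and 0.0333 (Areg). Groups of 2 and 3 pools were too small for a check of single outlying pools.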

How the results depend on the processing

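The main count was 924 probe sets, 263 higher and 661 lower in CAC control. It was 1680 (438 and 1242) with all 14 arrays in the fit, 2260 (683 and 1577) with dim probe sets removed before the fit, 497 (129 and 368) without less specific probe sets, 1916 (1175 and 741) with no intensity minimum, 193 (43 and 150) at an adjusted p under 0.01 and 381 (109 and 272) at 2-fold or more. Quantile normalization gave 659 (282 and 377), 1 probe set per gene 631 (147 and 484) and the mean of a gene's probe sets 599 (143 and 456). Leaving out each pool in turn gave 246 to 762 in all, 67 to 181 higher and 179 to 581 lower. With the replicate number as a block 10 passed (3 higher, 7 lower); the samples share only a number, with correlations of deviations of -0.085 and 0.011 for the 2 pairs. With no intensity minimum higher calls outnumbered lower ones, against the main split (61.3% against 28.5% higher). Goblet cell genes went from 0 higher and 1 lower to 3 higher and 0 lower with dim probe sets removed before the fit, and the median of the glycolysis list went from 0.15 to -0.12 without CAC control 1. No named gene changed sign under the alternatives computed for single genes, and under these Apc passed with all 14 arrays and with no other. Of the 61 named genes that passed, 12 kept the call whichever pool was left out. With all 14 arrays in the fit 28 of the 61 lost the call. Among these were Fosb, Atf3, Ascl2 and Axin2 (adjusted p = 0.0556, 0.0913, 0.0758 and 0.0589). Signal near the array floor limits folds of genes with a mean under 32.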
